A study of Homo sapiens with 4 samples.

Results

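Regulated exocytosis, the calcium-triggered fusion of synaptic vesicles and dense-core vesicles with the plasma membrane, was followed through 55 genes that encode its calcium sensors, SNARE proteins, priming factors, active-zone scaffolds and vesicle membrane proteins. The genes were taken by name, 1 row of the count table per symbol, and all 55 were found among 64252 rows. The cells were SK-N-BE(2), an established human neuroblastoma line with amplified MYCN, transfected with a control hairpin RNA (shControl, 2 libraries) or with a hairpin against CDK5RAP3 (shCDK5RAP3, 2 libraries), and total RNA was sequenced. CDK5RAP3 is an adaptor of the UFM1 ligase at the endoplasmic reticulum (ER), and the study's title links it to ER-phagy and to the transcription factors of neuroblastoma. The sources used here do not give the time after transfection, the sequence of the hairpins, or whether cells were pooled or cloned. Nothing in the labels says that replicates were separate cultures, so p-values measure only the spread between these libraries, which may be technical.

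Vesicle fusion is driven by SNAREs. A vesicle SNARE of the VAMP family zips together with a syntaxin and a SNAP protein on the target membrane, complexins clamp and assist the assembled complex, and synaptotagmins bind calcium and release fusion within the active zone. UNC13 and CADPS proteins prime docked vesicles, and RIM, bassoon and piccolo hold them at release sites. Chromaffin cells and sympathetic neurons, the lineage from which neuroblastoma arises, use this machinery to release catecholamines and neuropeptides from dense-core vesicles.

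Total counts were 28653689 to 30138393 per library. CDK5RAP3 itself stood at 2529 and 2866 counts with the control hairpin and at 1669 and 1689 with its own, 62.1% of control in CPM (edgeR adjusted p = 0.000163), although 30.6% of its exon length is shared with a transcript on the same strand. CPM is a gene's count scaled to the size of its library. All 10 markers of noradrenergic neuroblastoma were expressed, with a summed level, most of it MYCN, of 7277 to 7728 CPM in shControl and 4781 to 4944 CPM in shCDK5RAP3 libraries. Of these markers 7 fell and 1 rose, GATA2, where over all genes tested 21.8% fell and 19.7% rose. Of 24 markers of fibroblasts, glia, leukocytes, endothelium and epithelium, the Schwann cell factor SOX10 and the T-cell gene CD3E were at 0 in every library and the endothelial gene PECAM1 had 0 to 1 counts. The list's summed level was 583 to 611 CPM in shControl and 250 to 271 CPM in shCDK5RAP3 libraries, most of it from LUM and PDGFRB. Of its 19 tested genes 9 fell, 7 of them at least 2-fold, and 1 rose. Their median log2 fold change of shCDK5RAP3 over shControl was -0.884 and the lowest was -6.822. Over the tested exocytosis members the median was -0.464 and the lowest -2.65. The part of these markers in the results below was not tested.

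Most vesicle exocytosis genes were lower in the shCDK5RAP3 libraries, but the losses were uneven. The complexin CPLX1, the active-zone gene RIMS3 and the calcium sensor SYT7 dropped to 15.9%, 18.3% and 22.7% of control. Of 7 widely studied genes of this machinery, VAMP2, SYP and SYN1 fell to 67.4%, 70.9% and 50.1% of control and SNAP25 rose 1.18-fold, while SYT1, STX1A and SV2A did not pass, at 98.8%, 95.7% and 94.9% of control. The steepest rise that passed was that of SYT11, 1.48-fold. Of the 55 genes, 52 had enough counts to be tested. Among those 52, 28 fell, 4 rose and 20 did not pass (edgeR quasi-likelihood test, Benjamini-Hochberg adjusted p under 0.05 over all 18775 genes tested). That is 53.8% of the tested members fallen and 7.69% risen, where over all genes tested 21.8% fell, 19.7% rose and 41.5% passed in either direction. These shares over all genes are the reference for each count by role or list below. Of the 52, 11 fell at least 2-fold, against 7.29% of all genes, and 0 rose as much. The median log2 fold change of shCDK5RAP3 over shControl was -0.46 over the tested members and -0.003 over all genes. The libraries of the 2 groups did not overlap in CPM for 44 of the 52 members, 84.6%, against 71.4% of all genes. Summed over all 55 members the level was 2308 and 2215 CPM in the shControl libraries and 1675 and 1643 CPM in the shCDK5RAP3 libraries. Fewer cells that express a gene and less of its RNA per cell cannot be told apart in such bulk RNA. Fewer members passed with any 1 library left out, and so did fewer of all genes, the fewest when a shCDK5RAP3 library was left out. The members' median log2 fold change was -0.427 without shControl replicate 1 and -0.528 without shControl replicate 2. Over all genes the medians in those fits were 0.001 and 0.003.

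**Figure D1:**
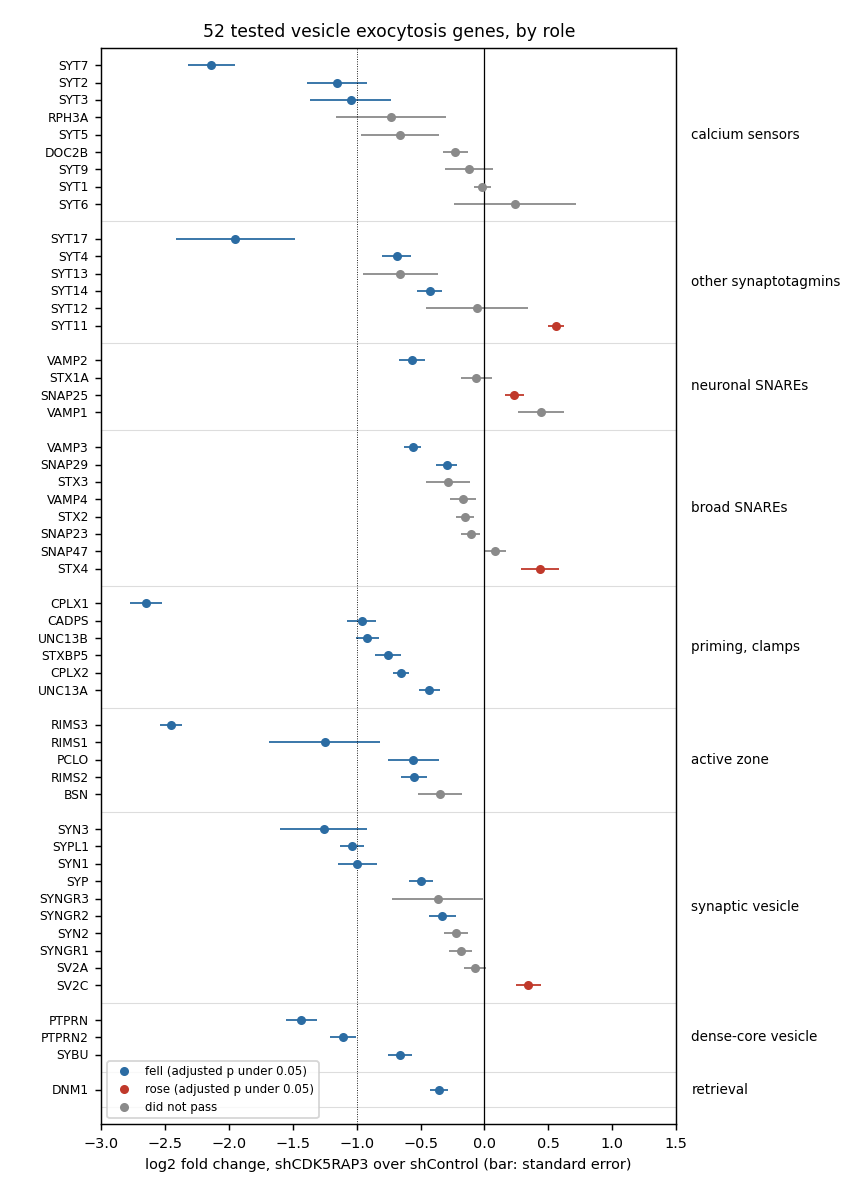
Log2 fold change (shCDK5RAP3 over shControl, x axis) of the 52 tested members, ordered within roles, with the standard error of the edgeR fit as a bar; blue genes fell, red genes rose and grey genes did not pass an adjusted p of 0.05, and the dotted line marks a 2-fold fall. All priming, active-zone and dense-core vesicle genes lie left of 0, from -0.35 for BSN to -2.65 for CPLX1, while the SNAREs lie between -0.57 and 0.44.

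Complexins are small proteins that bind the assembled SNARE complex, hold it short of fusion and then support its fast completion. CPLX1 (ENSG00000168993, GRCh38 chromosome 4, 784957 to 826198) was at 42.9 and 51.3 CPM in the shControl libraries and at 7.18 and 7.81 CPM in the shCDK5RAP3 libraries. Both shCDK5RAP3 libraries were thus far below both controls, and the 6.28-fold fall was the steepest among the members (log2 change -2.65 ± 0.12 SE, edgeR adjusted p = 1.79e-06). Its paralog CPLX2, the more abundant of the pair, fell from a mean of 245 to 156 CPM (log2 change -0.66 ± 0.06 SE, adjusted p = 7.56e-05). Per kilobase of exon, CPLX1 made up 33.1% and 39.0% of the summed complexin level in control cells and 11.9% and 12.8% in shCDK5RAP3 cells. The remaining complexin RNA therefore came mostly from CPLX2, and the family's summed level went from 53.5 and 54.4 to 24.9 and 25.1 CPM per kb.

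Of the other priming and clamping genes, every tested one fell, 6 of 6 with the complexins included. CADPS, which primes dense-core vesicles, went from 22.3 to 11.4 CPM in the mean (log2 change -0.96). UNC13B fell by 0.92 and UNC13A, its mainly neuronal paralog, by 0.43 on the log2 scale. STXBP5, tomosyn, which occupies syntaxin and so restrains fusion, also fell, by 0.76. CADPS2 was not tested, with 0 and 2 counts in the shControl libraries and 0 in both shCDK5RAP3 libraries. The call of UNC13A was lost without shCDK5RAP3 replicate 2 (edgeR adjusted p = 0.0763).

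RIM proteins tether vesicles and calcium channels at the active zone, and RIMS3 encodes a short family member with a single C2 domain. Of the 5 active-zone genes, 4 fell and 1 did not pass. RIMS3 (ENSG00000117016, chromosome 1, 40620679 to 40665657) had 8218 and 7471 counts, 284 and 257 CPM, in the shControl libraries and 1494 and 1375 counts, 52.3 and 46.5 CPM, in the shCDK5RAP3 libraries. It was the member with the highest CPM in control cells and fell 5.48-fold (log2 change -2.45 ± 0.08 SE, edgeR adjusted p = 4.32e-07), with no overlap between the groups. RIMS1, at 0.933 and 0.963 CPM in the shControl and 0.385 and 0.406 CPM in the shCDK5RAP3 libraries, fell too (log2 change -1.25, edgeR adjusted p = 0.044), from 27 and 28 counts to 11 and 12. That call was lost when any 1 of the 4 libraries was left out (adjusted p = 0.133 to 0.17), with DESeq2 (0.248) and with the replicate number as a block (0.0542). RIMS2 fell by 0.55 and the scaffold gene PCLO (piccolo) by 0.56 (adjusted p = 0.049). BSN (bassoon) did not pass (log2 change -0.35, adjusted p = 0.134), with 1062 and 706 counts in the shControl libraries that overlapped the 713 and 677 of the shCDK5RAP3 libraries. PCLO also had 1 high control library, 771 and 483 counts against 402 and 454, and without shControl replicate 1 its log2 change was -0.18 (adjusted p = 0.403). BSN passed without shControl replicate 2 (log2 change -0.62, adjusted p = 0.000609) and with the replicate number as a block (0.0163), and RIMS2 did not without shCDK5RAP3 replicate 2 (0.0574). PCLO also did not pass without either shCDK5RAP3 library (0.266 without replicate 1, 0.22 without replicate 2). RIMS3 made up 94.7% and 94.6% of the RIM family's CPM per kb in control cells and 83.0% and 82.2% in shCDK5RAP3 cells.

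**Figure D2:**
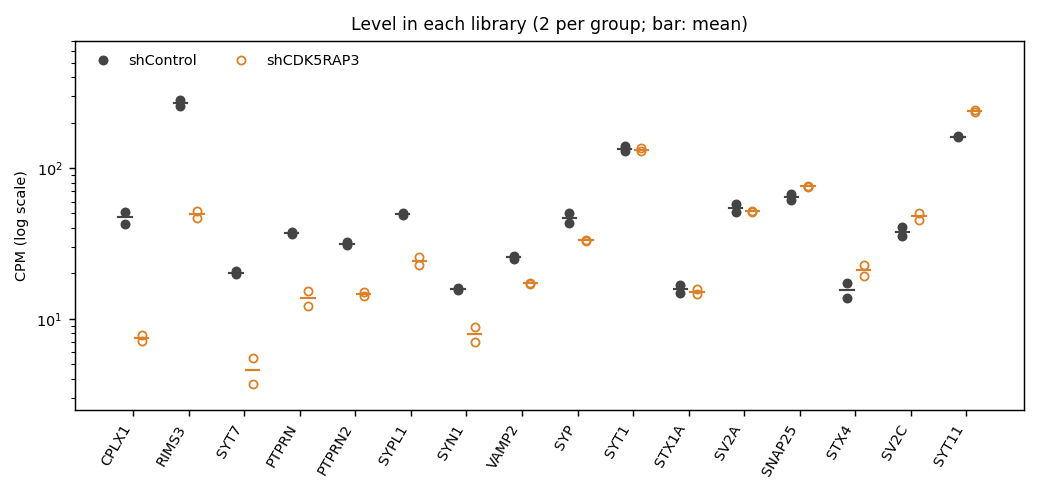
CPM (y axis, log scale) of 16 members in each of the 4 libraries, with filled points for shControl, open points for shCDK5RAP3 and a bar at each group's mean. CPLX1, RIMS3 and SYT7 show the widest gaps, SYT1, STX1A and SV2A overlap between the groups, and SYT11, SV2C, STX4 and SNAP25 lie higher in the shCDK5RAP3 libraries.

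Synaptotagmins carry paired C2 domains, and those that bind calcium trigger fusion. Of the 9 calcium sensors tested, 3 fell and 6 did not pass. SYT1, the fast sensor of synaptic vesicles, was at 139 and 130 CPM in the shControl libraries and 136 and 129 CPM in the shCDK5RAP3 libraries. The groups overlapped, and the log2 change was -0.02 with a 95% interval of -0.17 to 0.14 (edgeR adjusted p = 0.861). SYT7 (ENSG00000011347, chromosome 11, 61515313 to 61581148), a slow high-affinity sensor that acts on dense-core vesicles and lysosomes, was at 19.7 and 20.8 CPM in the shControl libraries and 3.71 and 5.48 CPM in the shCDK5RAP3 libraries. It fell 4.40-fold with no overlap (log2 change -2.14 ± 0.19 SE, adjusted p = 3.92e-05). Other sensors, at lower levels, fell as well. SYT2, the fast sensor of some synapses, had 8.47 and 5.95 CPM in shControl against 3.61 and 2.87 CPM in shCDK5RAP3 libraries (log2 change -1.15), a call lost without shCDK5RAP3 replicate 2 (adjusted p = 0.0822). SYT3 had 1.80 and 2.55 CPM against 1.12 and 0.980 CPM (log2 change -1.05). Its call was lost without shControl replicate 2 (0.172), shCDK5RAP3 replicate 1 (0.0863) or shCDK5RAP3 replicate 2 (0.147), and with DESeq2 (0.124). SYT5 (-0.66), SYT9 (-0.12) and SYT6 (0.24) did not pass. The C2-domain proteins DOC2B (-0.23) and RPH3A (-0.73) did not pass either, and RPH3A was uneven, with 62 and 62 counts in shControl and 19 and 56 in shCDK5RAP3 libraries. Without shCDK5RAP3 replicate 2 RPH3A passed (log2 change -1.68, adjusted p = 0.0366).

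Among synaptotagmins that bind calcium weakly or not at all, 3 of 6 fell, 1 rose and 2 did not pass. SYT11 (ENSG00000132718, chromosome 1, 155859509 to 155885199), which in neurons acts in endocytosis and vesicle trafficking, was at 164 and 160 CPM in the shControl libraries and 236 and 242 CPM in the shCDK5RAP3 libraries. Both shCDK5RAP3 libraries were above both controls (log2 change 0.56 ± 0.06 SE, edgeR adjusted p = 0.000122), and this rise was the largest among the members that passed. SYT4, found on dense-core vesicles, fell from a mean of 24.5 to 15.2 CPM (log2 change -0.69), and SYT14 fell by 0.43. SYT17 was at 1.14 and 1.27 CPM in the shControl and 0.210 and 0.406 CPM in the shCDK5RAP3 libraries, or 33 and 37 against 6 and 12 counts (log2 change -1.95, adjusted p = 0.00906). Its value was -1.55 and the call was lost without shCDK5RAP3 replicate 1 (adjusted p = 0.068), and that of SYT14 likewise (0.0954). SYT12 (-0.06) and SYT13 (-0.66) did not pass, at mean levels under 3 CPM. Over the 13 synaptotagmin genes the summed level per kb was 70.2 and 67.1 CPM in shControl and 76.3 and 76.1 CPM in shCDK5RAP3 libraries. SYT11 held 44.5% and 45.5% of it in control cells and 59.1% and 60.7% in shCDK5RAP3 cells, while SYT7 went from 4.72% and 5.21% to 0.818% and 1.21%. The family's total was thus not lower, and its make-up moved toward SYT11.

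**Figure D3:**
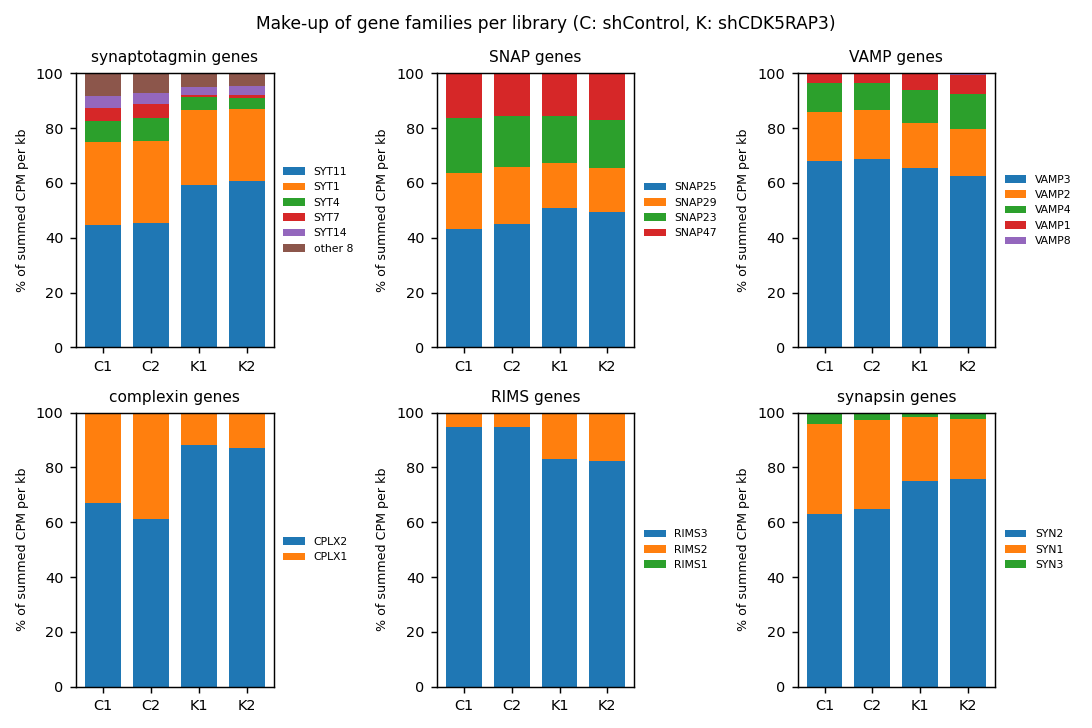
Share of each gene in the summed CPM per kb of exon of its family (y axis, percent) in each library, C1 and C2 for shControl and K1 and K2 for shCDK5RAP3 replicates 1 and 2. The shares of CPLX1, RIMS3, SYN1 and SYT7 are smaller and those of SYT11 and SNAP25 larger in both shCDK5RAP3 libraries than in both shControl libraries.

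The tested SNARE genes spanned log2 changes of -0.57 to 0.44. SNAP25, the neuronal partner of syntaxin and target of botulinum toxin A, was at 61.2 and 67.4 CPM in the shControl libraries and 76.1 and 75.1 CPM in the shCDK5RAP3 libraries. It rose 1.18-fold (log2 change 0.23 ± 0.07 SE, edgeR adjusted p = 0.0302), a call lost without shControl replicate 1 (0.144), shCDK5RAP3 replicate 1 (0.164) or shCDK5RAP3 replicate 2 (0.171), with DESeq2 (0.0698) and by library size (0.0537). STX1A, the neuronal syntaxin, was at 14.9 and 16.7 CPM in the shControl and 14.5 and 15.7 CPM in the shCDK5RAP3 libraries, so the groups overlapped (log2 change -0.06, 95% interval -0.34 to 0.22, adjusted p = 0.716). VAMP2, the vesicle SNARE of synaptic and dense-core vesicles, fell from 26.1 and 25.1 CPM to 17.1 and 17.4 CPM (log2 change -0.57 ± 0.10 SE, adjusted p = 0.00191). VAMP1 did not pass (0.44, adjusted p = 0.0771) although both of its shCDK5RAP3 libraries, 7.08 and 7.98 CPM, were above the controls, 5.98 and 5.09 CPM. Of the neuronal SNAREs, 1 rose, 1 fell and 2 did not pass. At 25% each way, these counts are near the shares over all genes.

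Of the 8 tested SNAREs of broad expression, 1 rose, 2 fell and 5 did not pass. That is 12.5% risen and 25% fallen, where over all genes 19.7% rose and 21.8% fell. STX4, the plasma membrane syntaxin of constitutive and insulin-driven exocytosis, was at 17.3 and 13.7 CPM in the shControl and 22.8 and 19.1 CPM in the shCDK5RAP3 libraries (log2 change 0.44 ± 0.15 SE, edgeR adjusted p = 0.0396). The groups did not overlap, but the spread within each was wide, and the call was lost without shControl replicate 2 (0.167), shCDK5RAP3 replicate 1 (0.269) or shCDK5RAP3 replicate 2 (0.1), with DESeq2 (0.0567) and by library size (0.0533). VAMP3 (cellubrevin), the recycling-endosome SNARE and the most abundant VAMP gene per kb, fell by 0.56 on the log2 scale from a mean of 83.1 to 56.3 CPM. SNAP29 fell by 0.30, a call lost without shControl replicate 2 (0.0936) or without either shCDK5RAP3 library (0.134 and 0.122). SNAP23 (-0.11), SNAP47 (0.08), STX2 (-0.15), STX3 (-0.28) and VAMP4 (-0.17) did not pass. VAMP8, a SNARE of secretory granules in blood and gland cells, was not tested, with 0 to 5 counts per library. Summed per kb, the SNAP family was at 42.1 and 44.8 CPM in shControl and 44.6 and 45.3 CPM in shCDK5RAP3 libraries, the syntaxins at 24.8 and 24.1 against 24.6 and 23.2 CPM, and the VAMP family at 44.7 and 43.2 against 32.0 and 31.6 CPM. Only the VAMP total, of these 3 sums, was lower in both shCDK5RAP3 libraries by more than the gap between replicates of either group. Exons of SNAP47 overlap those of JMJD4 on the other strand over 35.3% of their length, those of SYT2 overlap PPP1R12B over 27.2%, SNAP23 overlaps an antisense gene over 23.6% and STX1A overlaps BUD23 over 17.9%, while 13.2% of VAMP2 is shared with a gene on the same strand. The sources used here do not say whether reads were counted by strand, which for VAMP2 would not separate the genes. The values of these 5 members, the ones with at least 10% of exon bases overlapped, are thus uncertain. In all, exons of 23 members overlap another gene.

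Of the 10 tested genes for synaptic vesicle membrane and surface proteins, 5 fell, 1 rose and 4 did not pass. Synaptophysin, SYP, was at 43.6 and 50.2 CPM in the shControl and 33.5 and 33.0 CPM in the shCDK5RAP3 libraries, with no overlap (log2 change -0.50 ± 0.09 SE, edgeR adjusted p = 0.00269; 0.0646 without shCDK5RAP3 replicate 2). Its broadly expressed relative SYPL1 (ENSG00000008282, chromosome 7, 106090503 to 106112576) was lower by more, at 48.7 and 50.7 CPM against 22.7 and 25.7 CPM (log2 change -1.04 ± 0.09 SE, adjusted p = 4.73e-05). SV2A, the vesicle glycoprotein bound by levetiracetam, was at 51.0 and 57.9 CPM in shControl and 51.9 and 51.5 CPM in shCDK5RAP3 libraries and overlapped (log2 change -0.08, 95% interval -0.26 to 0.11, adjusted p = 0.509). Its paralog SV2C rose, from 40.4 and 35.2 to 50.5 and 45.4 CPM (log2 change 0.34 ± 0.10 SE, adjusted p = 0.0201), a call lost without shControl replicate 2 (0.0849) or without either shCDK5RAP3 library (0.169 and 0.0793). SV2B had 0 counts in all 4 libraries, which allows up to 3 counts or about 0.10 CPM in each, counting error only. Of the synaptogyrins, SYNGR2 fell by 0.33, while SYNGR1 (-0.19) and SYNGR3 (-0.37) did not pass. SYNGR2 lost its call without shControl replicate 2 (0.0994), without either shCDK5RAP3 library (0.116 and 0.168) and with DESeq2 (0.094), and SYNGR1 passed without shControl replicate 1 (0.0404).

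Synapsins coat the vesicle surface and hold vesicles in the reserve pool. SYN1 (ENSG00000008056, chromosome X, 47571898 to 47619943) was at 15.6 and 16.0 CPM in the shControl libraries and 8.83 and 7.03 CPM in the shCDK5RAP3 libraries, a fall to 50.1% of control with no overlap (log2 change -0.998 ± 0.15 SE, edgeR adjusted p = 0.00087). SYN3, at 2.73 and 1.96 CPM in shControl and 0.771 and 1.18 CPM in shCDK5RAP3 libraries, fell as well (log2 change -1.26, adjusted p = 0.0158). That call was lost without shControl replicate 1 (0.0856), shCDK5RAP3 replicate 1 (0.109) or shCDK5RAP3 replicate 2 (0.0537) and with DESeq2 (0.0584). SYN2 did not pass (log2 change -0.22, adjusted p = 0.0815), though it did with the replicate number as a block (0.0307). SYN2 held a mean of 63.8% of the synapsin level per kb in control cells and 75.5% in shCDK5RAP3 cells.

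REST is a repressor that keeps many neuronal genes silent outside neurons by binding an element called RE1, whose left arm reads TTCAGCACC and whose right arm begins GGACAGCG. REST rose from a mean of 25.4 to 39.3 CPM (log2 change 0.63, edgeR adjusted p = 0.000796), while its corepressor RCOR1 fell by 0.94. Of the 6 genes in the list of REST and its corepressors, 2 rose, 2 fell and 2 did not pass (median -0.053). The part of REST in the falls was not tested. Promoter sequences from RefSeq (GRCh38.p14, 250 bases before to 50 after a start) were given for 42 of the 55 members, 67 promoters in all. The other 13 were not searched. They were CPLX1, SYT7, SYT17, SYN3, PTPRN2, SYBU, RIMS2, SNAP25, DOC2B, SYT12, SYT13, SYNGR3 and CADPS2. The left arm, searched on both strands, stood in the promoters of SYN1 and UNC13A, and in 0.376% of all 35116 promoters of the same length. The left arm followed after 2 bases by GGACAG stood in that of SYN1 and in 5 of the 35116. Both arms, reading on the strand opposite to the gene and with a wider gap, stood in that of UNC13A around the start site, and the right arm alone also in those of BSN and RPH3A and in 1.63% of all promoters. Of the 42 members with a promoter, 2 held the left arm and 3 the right, against 0.402% and 2.89% of tested genes. The RPH3A promoters with the right arm overlap and share the same site. SYN1 and UNC13A fell, while BSN and RPH3A did not pass. The promoters of SYN1 and UNC13A are shown because they hold the left arm, with every motif found in capitals. In SYN1 these are the left arm with the 2 bases and the GGACAG after it, and the cAMP-response element TGACGTCA. The full GGACAGCG was not found in SYN1. In UNC13A the capitals mark both arms and the E-box CACGTG.

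SYN1 promoter, chrX:47619808-47620107, minus strand: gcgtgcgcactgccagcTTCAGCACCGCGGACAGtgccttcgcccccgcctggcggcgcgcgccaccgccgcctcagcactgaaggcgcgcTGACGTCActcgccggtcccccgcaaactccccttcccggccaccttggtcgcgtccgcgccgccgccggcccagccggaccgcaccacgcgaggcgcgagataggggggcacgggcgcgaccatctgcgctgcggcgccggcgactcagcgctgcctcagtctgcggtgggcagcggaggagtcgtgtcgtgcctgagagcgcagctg

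UNC13A promoter, chr19:17688305-17688604, minus strand: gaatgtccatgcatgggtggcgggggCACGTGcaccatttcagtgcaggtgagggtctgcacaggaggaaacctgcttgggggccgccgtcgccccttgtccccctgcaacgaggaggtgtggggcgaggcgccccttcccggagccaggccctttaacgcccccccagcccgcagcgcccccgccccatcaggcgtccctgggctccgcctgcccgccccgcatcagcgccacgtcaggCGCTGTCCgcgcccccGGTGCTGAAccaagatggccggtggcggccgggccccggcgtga

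The E-box, which MYC-family factors bind, stood in promoters of 6 of the 42 members (SNAP29, STX2, STX4, SYT6, SYT14 and UNC13A) and of 12.4% of the tested genes in the table. Of these 6, SNAP29, SYT14 and UNC13A fell, STX4 rose, and STX2 and SYT6 did not pass. The pattern TGANTCA, where N is any base, was searched as a loose form of the AP-1 element. It stood in promoters of RIMS1 (TGAGTCA and TGACTCA) and SYP (TGAATCA), and in those of 6.96% of tested genes. The median GC content was 67.0% over the member promoters and 64.7% over the promoters of tested genes. A match is a run of letters in the window and no measured binding.

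Dense-core vesicle membrane and transport genes fell in 3 of 3 cases. PTPRN (ENSG00000054356, chromosome 2, 219289623 to 219309648) encodes IA-2, a receptor-like protein of the granule membrane and an autoantigen of type 1 diabetes. It was at 37.9 and 36.4 CPM in the shControl and 12.2 and 15.3 CPM in the shCDK5RAP3 libraries (log2 change -1.44 ± 0.12 SE, edgeR adjusted p = 3.42e-05). Its paralog PTPRN2 (phogrin) was at 32.3 and 31.0 CPM against 14.2 and 15.1 CPM (log2 change -1.11 ± 0.10 SE, adjusted p = 5.07e-05). Neither gene overlapped between groups, and both kept their calls in each setting tried. SYBU (syntabulin), which links vesicles to kinesin, fell by 0.66, and DNM1, the neuronal dynamin that cuts retrieved vesicles from the membrane, by 0.35 (adjusted p = 0.0753 for DNM1 without shCDK5RAP3 replicate 2).

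Other genes of the pathway, in lists that do not hold the members, gave the setting. Over all genes tested 21.8% fell and 19.7% rose. Dense-core vesicle cargo and biogenesis genes had 15 falls and 4 rises of 21 tested (median -0.55), with PCSK1 (-2.65), CHGA (-2.27), CHGB (-1.91) and ADCYAP1 (-1.79) moving most. Among 44 other exocytosis genes 16 fell and 6 rose, 36.4% and 13.6% (median -0.22). Here the named genes by size of change were SYNGR4 (-3.20), the synuclein SNCG (-2.55) and the vesicle GTPase genes RAB3B (-1.62) and RAB27B (-1.59), the first 2 from under 1 CPM. After their values were seen, the RAB3 genes were counted together, and 4 of 4 fell. Because they were picked by these values, the count gives no independent support. Vesicle retrieval genes had 12 falls and 6 rises of 28 (median -0.32), led by the adaptor genes EPS15 (-1.79) and SNAP91 (-1.60), PACSIN1 (-1.65) and AP3B2 (-1.35). Exocyst genes had 2 falls and 2 rises of 9 (median 0.08), namely EXOC6 (-0.51), EXOC4 (-0.29), EXOC8 (0.46) and EXOC5 (0.43). That is 22.2% each way, near the shares over all genes.

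SNAREs of the ER, Golgi, endosome and lysosome showed another split, with 12 rises and 4 falls of 21 tested and a median of 0.33. That is 57.1% risen and 19% fallen, where over all genes 19.7% rose and 21.8% fell. STX7 (-0.98) and STX10 (-0.89) fell, and the endosomal STX12 (0.81) and the Golgi SNARE YKT6 (0.73) rose. Their summed level was 991 and 991 CPM in the shControl libraries and 1178 and 1194 CPM in the shCDK5RAP3 libraries, so the sum was higher, whereas that of the exocytosis members was lower. The difference between the lists was not tested. Over all 5 lists there were 30 rises and 49 falls of 123 in all 4 libraries, 24.4% and 39.8%. Fewer of these genes passed when either shCDK5RAP3 library was left out, and so did fewer of all genes tested.

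**Figure D4:**
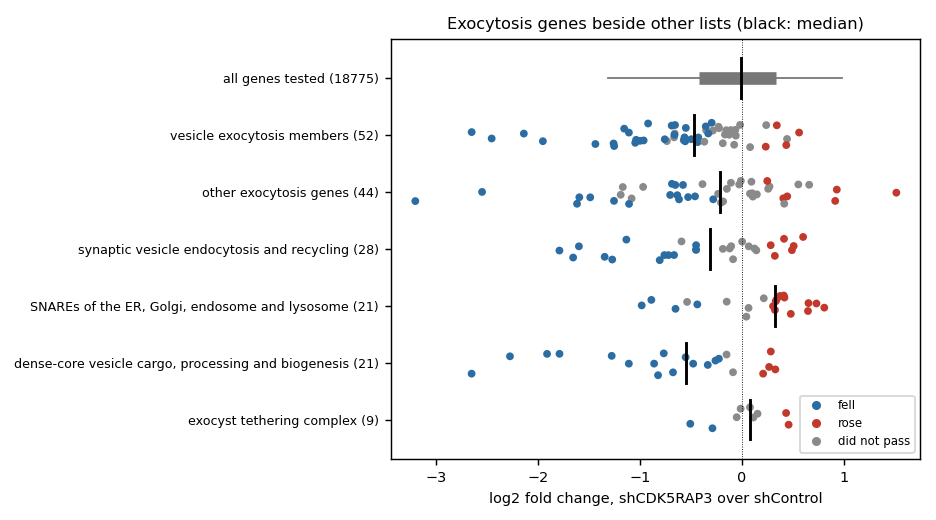
Log2 fold change (x axis) of each tested gene in the exocytosis members and in 5 further lists, with the number tested in brackets and the median as a black line; for all 18775 genes the thick bar spans the 25th to 75th percentile (-0.42 to 0.34) and the thin line the 5th to 95th (-1.31 to 0.98). The members and the cargo list lie mostly left of 0, and the ER, Golgi and endosomal SNAREs mostly right of it.

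The 7-base words AACACCT and ACACCTA were linked to falls in an earlier look at these same libraries, so their presence gives no independent support, and the sources used here do not give the hairpin's own sequence. In the longest annotated 3′ untranslated region of each gene (GENCODE 29), 14 of the 52 tested members held at least 1 of the words. Of the 14, 10 fell and 0 rose (median -0.60), and of the 38 without, 18 fell and 4 rose (median -0.40). Over all 13560 tested protein-coding genes with such a region, 15.3% held a word, against 26.9% of the members. Of those genes with a word 42.6% fell and 14.2% rose (median -0.24). Of those without, 23.7% fell and 24.4% rose (median 0.008). Members with a word had longer regions, with a median of 3133 bases against 2103 bases, and over all these genes the medians were 3086 against 1173 bases. CPLX1, SYT7, PTPRN and PTPRN2, 4 of the members that fell most, held neither word, while RIMS3, SYT17, SYPL1, SYN1, CADPS and CPLX2 did. The sites of these 6 are printed because they are the members with a word that passed with the largest falls, with the word in capitals (GRCh38, from the transcript sequence).

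RIMS3, chr1:40624675-40624703, minus strand: cagagtcttatAACACCTcccaagaaaga

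SYT17, chr16:19267506-19267534, plus strand: ttccgaaacacACACCTActgggtaactt

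SYPL1, chr7:106091733-106091761, minus strand: gacatgttgccAACACCTtgagaagcatt

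SYN1, chrX:47572434-47572462, minus strand: atctctccagcACACCTAtttcccatcat

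SYN1, chrX:47572324-47572353, minus strand: aaatgccacccAACACCTAgccccacaagg

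CADPS, chr3:62625679-62625708, minus strand: tggtatccgccAACACCTAtagtctcagaa

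CPLX2, chr5:175880866-175880894, plus strand: atgccatggggAACACCTccattggtgtg

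SYN1 held the words at 2 places, and in SYN1 (at the second place) and CADPS they stood joined as 1 run of 8 bases. SYT1 and STX3 also held a word and did not pass (-0.02 and -0.28), as did SYT13 (-0.66) and BSN. The part of these words in the falls was not tested.

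Across the 52 tested members the log2 change had a Spearman correlation of 0.14 with the control level per kb and of -0.16 with exon length, as a description of genes that share the same 4 libraries. The steepest falls thus came both from abundant genes, such as RIMS3 at 37.4 CPM per kb and CPLX1 at 19.5, and from less abundant ones, such as SYT7 at 3.40. In control cells the highest levels per kb among the members were those of RIMS3, CPLX2 (34.5), SYT11 (30.9), VAMP3 (30.1) and SYT1 (20.7). In shCDK5RAP3 cells they were SYT11 (45.6), SNAP25 (22.5), CPLX2 (21.9), SYT1 (20.5) and VAMP3 (20.4), and RIMS3 stood at 6.83 CPM per kb.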

How the data were processed

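The authors deposited 1 table of whole-number read counts per Ensembl gene, with no scaling. The submitters' processing notes name hg38, StringTie and HISAT2 2.2.0, with no roles; how reads with several matches were treated is not given. Each column name equals 1 sample's description. Rows were named from a gene name table and GENCODE 29 (GRCh38), and 7661 rows without a name held 1.82% to 1.90% of counts and stayed in the tests.

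Tests used edgeR 4.0.16 in R 4.3.3 (TMM factors, default filter by group, quasi-likelihood fit without a replicate block, adjusted over 18775 genes). Standard errors are the log2 change over the square root of F. CPM uses TMM-scaled library sizes, and CPM per kb divides by the union of annotated exons. At this depth 3 counts are 0.101 to 0.105 CPM. Between replicates the chi-square per degree of freedom was 8.67 (shControl) and 6.81 (shCDK5RAP3), more than sampling noise.

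Members and lists were chosen with earlier results of these data known. Per-library values are given for members that passed with an absolute log2 change of at least 1, for those that rose by at least 0.3, and for SNAP25, STX1A, VAMP2, SYT1, SYP, SV2A and SYN1. From each further list the 4 largest changes that passed are named. Alternatives were other scaling factors and filters, DESeq2 1.42.0, limma-trend (limma 3.58.1), a robust fit, a replicate block, rows summed by symbol, and each library left out.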

Additional observations from a re-analysis of the deposited data

How the results depend on the processing

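Of the 32 members that passed, 16 kept their call and direction in each of the 14 settings tried, and 16 lost the call in at least 1. No call changed direction. The 16 that kept it were SYT11, which rose, and SYT7, SYT4, VAMP2, VAMP3, UNC13B, CADPS, CPLX1, CPLX2, STXBP5, RIMS3, SYN1, SYPL1, PTPRN, PTPRN2 and SYBU, which fell. Without a filter on low counts the rises of SNAP25, STX4 and SV2C and the falls of PCLO, SYT2, SYT3, SYT14, SYT17, SNAP29, RIMS1, SYN3 and SYNGR2 did not pass, and PCLO also missed under RLE factors (edgeR adjusted p = 0.0528), upper-quartile factors (0.0604), limma-trend (0.0626) and the robust fit (0.0918). The count of rises among members, 4, was 2 by library size, 1 without a filter on low counts and 2 with DESeq2, and ranged from 1 to 3 with each library left out. The count of falls, 28, ranged from 18 to 26 with each library left out. Over the 5 further lists, 30 rises became 18 without the filter and 12 to 27 with each library left out. The median log2 change of the members ranged from -0.53 to -0.40 over all settings. Without the filter 4488 genes passed in all and with DESeq2 6354, against 7792 in the main comparison. The fit without the filter adjusted over 33921 genes. In it the edgeR adjusted p of RIMS3 was 0.00869, against 4.32e-07 in the main comparison. The cause of these differences was not tested. With 1 library left in a group, that library is assumed to vary like the other group's. With the replicate number as a block, 29 members fell and 4 rose, RIMS1 lost its call (edgeR adjusted p = 0.0542), BSN (0.0163) and SYN2 gained one, and no other member's call changed; the members' median was -0.462 and CDK5RAP3 stood at -0.685 in that fit. Deviations of same-numbered libraries correlated at 0.147 across genes, and nothing in the labels says that the numbers pair cultures. Depth limits the 10 tested members under 3 CPM in control cells.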
